A study of Drosophila melanogaster with 32 samples.

Results

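The proteasome subunit genes of Drosophila melanogaster were followed here across ribosome-bound and total RNA of larval brains, in animals with a loss of function of the proneural gene ato and in wild type. Members were all genes of the deposited count table whose symbol starts with Rpn or Rpt and a digit, with Prosalpha or Prosbeta, or with Pros and a digit, which leaves out the transcription factor gene pros. The rule found 41 of 14161 genes: 28 subunits used throughout the body and 13 copies of such subunits, most of them known from testis. Single members were thus chosen by symbol and not by level. The family, however, was selected on the measured log2 fold change of Rpn7 between WT IP and WT input, among the largest decreases there, so that comparison is given as a description, with no test. Older symbols are printed as deposited, and the current name follows at first use.

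Each preparation came from 500 pooled larval (L3) brains of animals that carried ipcGal4 and UASRpl10Ab::GFP, so the control animals carried the driver and the tagged ribosomal protein as well. Input libraries were made from 10% of each homogenate and so represent RNA of all brain cells. The rest was precipitated with antibodies to GFP and gave the IP library, meant to hold RNA bound to ribosomes of T4/T5 neurons, the direction-selective cells of the fly's motion pathway, in which the tagged protein is expressed. The 4 groups were the ato IP (ipcGal4, UASRpl10Ab::GFP; ato1, a loss of function of ato), the WT IP (ipcGal4, UASRpl10Ab::GFP, wild type for ato), the ato input and the WT input, with 2 replicates each. Nothing in the labels says whether the replicates came from separate crosses, so p-values measure only the spread between these libraries, which may in part be technical.

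The proteasome degrades proteins that carry ubiquitin chains. Its core particle is a barrel of stacked rings: the outer alpha rings gate the entrance, and the inner beta rings hold the proteolytic sites. A regulatory particle caps the barrel. In its base, a ring of Rpt ATPases unfolds the substrate and threads it into the core, while the large scaffold subunits Rpn1 and Rpn2 and the ubiquitin receptor Rpn10 sit beside the ring. Its lid, a horseshoe of Rpn subunits around the deubiquitinase Rpn11, removes the chain. The subunits are needed in fixed proportions, and in flies the transcription factor cnc can raise many of their genes together. In neurons the complex is known for roles in axon and dendrite pruning and in turnover at the synapse.

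The 8 libraries held 7780123 to 12238648 counts. Neuronal marker sums (elav, n-syb, brp and Syt1) lay between 706 and 857 CPM in the 4 IPs and between 559.6 and 629.8 CPM in the 4 inputs, and the sums of 5 T4/T5 markers (bi, dac, grn, acj6 and SoxN) were 541 and 418 CPM in the ato IPs, 693 and 686 CPM in the WT IPs, 343 and 282 CPM in the ato inputs and 410.4 and 403 CPM in the WT inputs. Of the 5 T4/T5 markers, grn (log2 -1.56 ± 0.25) and dac (log2 -1.11 ± 0.18) were lower in the ato IP than in the WT IP. Both were also lower in the ato input than in the WT input (edgeR, adjusted p below 0.05). In these comparisons bi, acj6 and SoxN did not pass. The glial marker repo was present in every library, with 49.9 and 42.4 CPM in the ato IPs, 64 and 47.6 CPM in the WT IPs, 82.2 and 81 CPM in the ato inputs and 68.3 and 63.6 CPM in the WT inputs. Muscle marker sums (Mhc, sls, bt, up and wupA) stood higher in the IPs, with 1056 and 456 CPM in the ato IPs, 576 and 418 CPM in the WT IPs, 152 and 93.3 CPM in the ato inputs and 56.3 and 68.8 CPM in the WT inputs. Fat body sums were 173 and 54.4 CPM in the ato IPs, 100.5 and 23.6 CPM in the WT IPs, 113 and 42.4 CPM in the ato inputs and 56.5 and 11.5 CPM in the WT inputs, and hemocyte sums were 202 and 185 CPM in the ato IPs, 169 and 137 CPM in the WT IPs, 161 and 178 CPM in the ato inputs and 126 and 97.8 CPM in the WT inputs. Of 15 markers of other cell types, 5 were higher and 0 lower in the ato IP than in the ato input, 7 were higher and 0 lower in the WT IP than in the WT input, 5 were higher and 0 lower in the ato IP than in the WT IP, and 6 were higher and 1 lower in the ato input than in the WT input (edgeR, adjusted p below 0.05). No marker of these lists was at 0 in all libraries. Salivary gland and germline sums reached at most 8.67 CPM in any library. The part of these cells in the results on proteasome genes was not tested.

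Proteasome genes made up a smaller share of the RNA in the IPs than in the inputs. They took 0.435% and 0.376% of all counts in the ato IPs, against 0.877% and 0.773% in the ato inputs. In wild type the shares were 0.429% and 0.436% in the IPs, against 0.953% and 0.935% in the inputs. The lowest input share lay above the highest IP share in both genotypes.

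**Figure D1:**
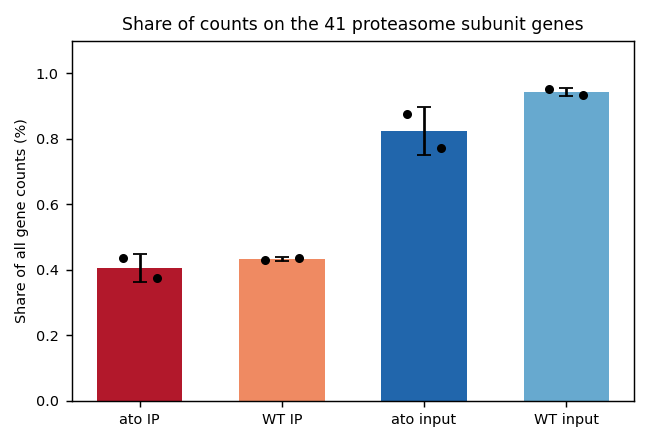
Share of all gene counts (%, vertical axis) that fell on the 41 proteasome subunit genes in the ato IP, WT IP, ato input and WT input. Bars are means, error bars the SD of 2 libraries and points the libraries, which lie at 0.376% to 0.436% in the IPs and at 0.773% to 0.953% in the inputs.

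Of the 41 members, 29 had enough counts for the test. They were 27 of the 28 body-wide subunits and 2 of the 13 copies, Rpt3R and Rpt6R. Between the ato IP and the ato input, 25 of the 29 were lower and 0 were higher (edgeR's quasi-likelihood test, adjusted p below 0.05 over 10224 genes). Of all tested genes 16.3% were lower and 11.9% higher. DESeq2 called 24 of the members lower and 0 higher. All 25 were body-wide subunits, and the remaining pair of these, Rpn1 and Rpn2, did not pass. The median log2 fold change over the 29 was -1.04 (-1.06 over the 27 body-wide subunits), against 0.02 over all tested genes. The ratio of an IP to an input is relative to each library's total, and in bulk RNA fewer cells of a type and less RNA per cell cannot be told apart.

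On the CPM scale, not corrected for length, the members had high input levels, and genes with such levels tended to stand lower in the IPs. Mean input levels of the 27 subunits ran from 137 to 548 CPM, with a median of 334 CPM, against 31.6 CPM over all tested genes. Among the 1173 tested genes in that range, 37.8% were lower in the ato IP and the median log2 fold change was -0.31. The members' exons were also short, with a median of 1234 bases against 1980 over tested genes. Among the 6588 tested genes of the members' exon length range, 846 to 3390 bases, 18.7% were lower and the median was -0.10. With offsets that remove each library's trend on exon length, 24 members were called lower in the ato IP, against 13.5% of all tested genes, and their median was -0.65.

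In wild type, described without a test, 27 of the 29 members had a log2 fold change below 0. So did 4819 of all 10224 tested genes and 842 of 1173 in the members' range of input level. Calls of members are not counted in this comparison, through which the family was selected. Over all genes 18.4% were lower and 17.3% higher at the edgeR threshold, and in that range 44.7% were lower. The members' median was -1.09 (-1.22 over the 27 subunits), with 0.06 over all tested genes and -0.39 in that range. Under DESeq2's size factors the median of all genes moved to 0.13 in ato and 0.14 in WT. With those factors edgeR called 1460 genes higher and 1350 lower in the ato IP, against 1217 and 1669 with TMM factors. DESeq2's own test, over 11349 genes, called 1516 higher and 1352 lower. In both alternatives the members called were still all lower.

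**Figure D2:**
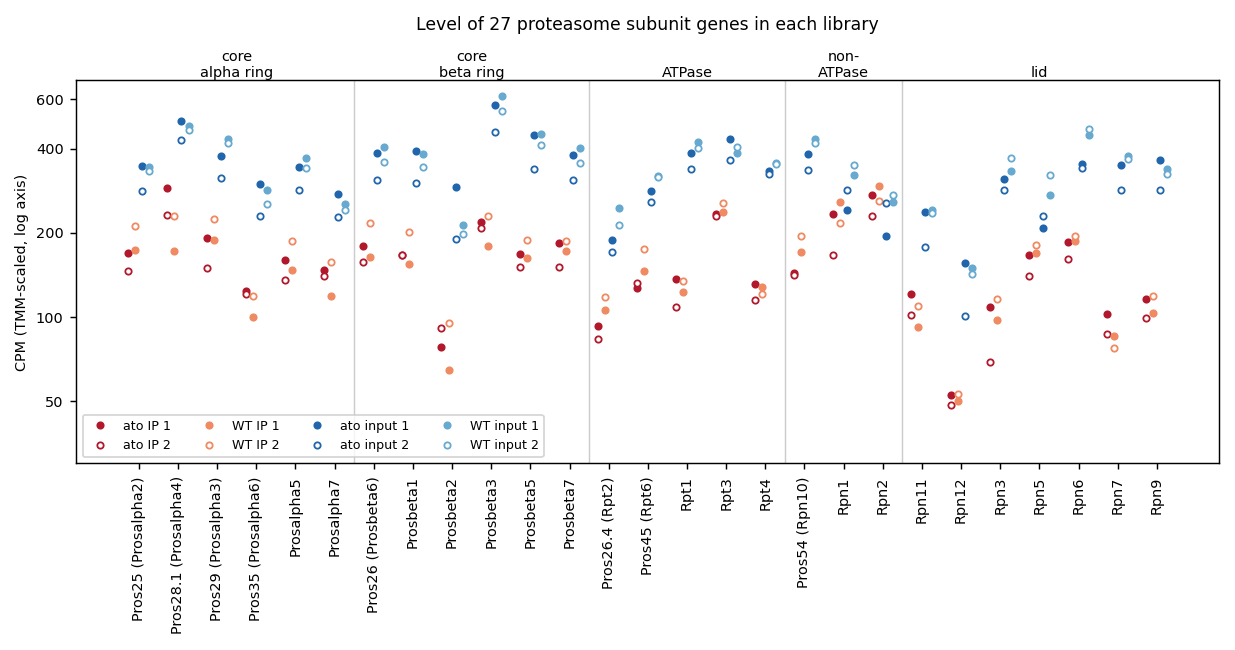
Level of the 27 body-wide subunit genes (CPM scaled by TMM factors, log axis) in each of the 8 libraries, by subcomplex, with filled points for replicate 1 and open points for replicate 2. For 26 of the 27 genes both ato IPs and both WT IPs lie below both inputs of the same genotype, and Rpn2 is the exception. Of all 10224 tested genes, 3332 in ato and 3431 in WT had both IPs below both inputs. Among the 1173 genes in the members' range of input level, 670 in ato and 726 in WT did.

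The 7 alpha subunits form the outer rings of the core, and 6 of them were measured: Pros25 (Prosalpha2), Pros29 (Prosalpha3), Pros28.1 (Prosalpha4), Prosalpha5, Pros35 (Prosalpha6) and Prosalpha7. All 6 were lower in the ato IP, with log2 fold changes from -1.11 in Pros35 to -0.81 in Prosalpha7, a median of -1.0, and edgeR adjusted p-values between 0.000266 and 0.00275. In wild type the 6 lay between -1.30 and -0.81, with a median of -1.07. Pros28.1 (X, bases 16170305 to 16171621 in dm3) had 289 and 232 CPM in the ato IPs, against 504 and 429 CPM in the ato inputs (log2 -0.84 ± 0.18, edgeR adjusted p = 0.00243). In wild type the gene had 173 and 229 CPM in the WT IPs, against 483 and 465 CPM in the WT inputs (log2 -1.24 ± 0.18). IPs and inputs did not overlap in either genotype, and both ato IPs lay above both WT IPs. Prosalpha7 had 147 and 139.7 CPM in the ato IPs, against 276 and 227 CPM in the ato inputs (log2 -0.81 ± 0.18, edgeR adjusted p = 0.00275), and 119 and 157 CPM in the WT IPs, against 253 and 242 CPM in the WT inputs (log2 -0.84 ± 0.18). Its call in ato was lost with the length offsets (log2 -0.34, adjusted p = 0.0622). Pros25 had 169.7 and 146 CPM in the ato IPs, against 347 and 283 CPM in the ato inputs (log2 -1.0 ± 0.17), and 174 and 211 CPM in the WT IPs, against 343 and 332 CPM in the WT inputs (log2 -0.81 ± 0.17). For Pros35 the values were 124 and 121 CPM in the ato IPs, against 299 and 229.7 CPM in the ato inputs (log2 -1.11 ± 0.18), and 100.1 and 119 CPM in the WT IPs, against 285 and 254 CPM in the WT inputs (log2 -1.30 ± 0.18). In both genes the inputs stood apart from the IPs.

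The beta subunits line the chamber, and Prosbeta1, Prosbeta2 and Prosbeta5 carry the cutting sites. The 6 measured were all lower in the ato IP, with a median log2 fold change of -1.17, a range from -1.51 to -1.04 and edgeR adjusted p-values between 7.46e-05 and 0.000541. The WT median was -1.18, with a range from -1.5 to -1.0. Prosbeta5, the subunit with chymotrypsin-like activity, had 167 and 151 CPM in the ato IPs, against 448 and 337 CPM in the ato inputs (log2 -1.30 ± 0.18), and 163 and 188 CPM in the WT IPs, against 449 and 411 CPM in the WT inputs (log2 -1.29 ± 0.18). Prosbeta1, with caspase-like activity, had 166 and 166 CPM in the ato IPs, against 392 and 302 CPM in the ato inputs (log2 -1.06 ± 0.18), and 155 and 201 CPM in the WT IPs, against 383 and 345 CPM in the WT inputs (log2 -1.03 ± 0.18). Every input of both genes lay above every IP. Prosbeta2, with trypsin-like activity, had the lowest level per kilobase of the ring in every group. It had 77.9 and 91.3 CPM in the ato IPs, against 293 and 191 CPM in the ato inputs (log2 -1.51 ± 0.22), and 64.7 and 95.1 CPM in the WT IPs, against 213 and 198 CPM in the WT inputs (log2 -1.37 ± 0.22); 7.63% of its exon bases overlap the gene Reck. Prosbeta3, a structural subunit (3R, bases 4831035 to 4831948, 1 exon block), had the highest level per kilobase of exon in every group. It had 219 and 208 CPM in the ato IPs, against 572 and 459 CPM in the ato inputs (log2 -1.27 ± 0.18), and 179 and 229.8 CPM in the WT IPs, against 617 and 543 CPM in the WT inputs (log2 -1.5 ± 0.18).

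**Figure D3:**
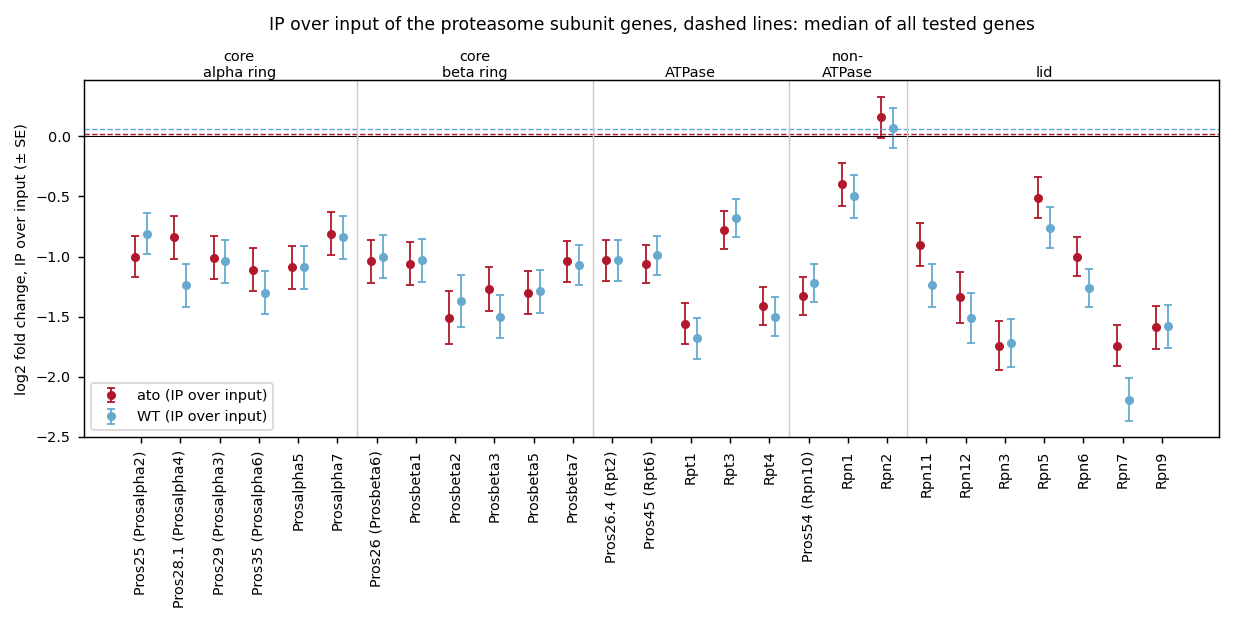
Log2 fold change of IP over input (vertical axis, ± SE, 2 libraries per group) of the 27 subunit genes in ato and in WT, by subcomplex, with dashed lines at the median of all tested genes, 0.02 in ato and 0.06 in WT. Rpn7 is lowest in both genotypes (-1.74 in ato and -2.19 in WT), and Rpn2 alone lies above 0 (0.16 in ato and 0.07 in WT).

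The ATPases of the base unfold substrates, and Rpt1, Pros26.4 (Rpt2), Rpt3, Rpt4 and Pros45 (Rpt6) were measured under symbols of the rule. All 5 were lower in the ato IP, with a median of -1.06, a range from -1.56 to -0.78 and edgeR adjusted p-values between 1.47e-05 and 0.0017. The WT median was -1.03, with a range from -1.68 to -0.68. Rpt1 (2R, bases 3539943 to 3541453, 1 exon block) had the lowest ratio of the ring. It had 137 and 109 CPM in the ato IPs, against 386 and 338 CPM in the ato inputs (log2 -1.56 ± 0.17, edgeR adjusted p = 1.47e-05), and 123 and 134 CPM in the WT IPs, against 422 and 402 CPM in the WT inputs (log2 -1.68 ± 0.17). Rpt3 (X, bases 11019221 to 11020840) had the highest ratio of the ring. It had 234 and 229.6 CPM in the ato IPs, against 431 and 363 CPM in the ato inputs (log2 -0.78 ± 0.16, edgeR adjusted p = 0.0017), and 237 and 255 CPM in the WT IPs, against 386 and 404 CPM in the WT inputs (log2 -0.68 ± 0.16). Every input of both genes lay above every IP. Pros26.4 had 93 and 83.8 CPM in the ato IPs, against 189 and 171 CPM in the ato inputs (log2 -1.03 ± 0.17), and 106 and 118 CPM in the WT IPs, against 244 and 213 CPM in the WT inputs (log2 -1.03 ± 0.17). For Pros45, of whose exon bases 13.0% overlap CG1801, the values were 127 and 132 CPM in the ato IPs, against 281 and 258 CPM in the ato inputs (log2 -1.06 ± 0.16), and 146 and 175 CPM in the WT IPs, against 318 and 317 CPM in the WT inputs (log2 -0.99 ± 0.16).

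The non-ATPase subunits of the base did not move together. Pros54 (Rpn10; 3L, bases 21530100 to 21531683), the receptor for ubiquitin chains, was lower in the ato IP. It had 144 and 141 CPM in the ato IPs, against 382 and 335 CPM in the ato inputs (log2 -1.33 ± 0.16, edgeR adjusted p = 3.25e-05), and 171 and 195 CPM in the WT IPs, against 433 and 419 CPM in the WT inputs (log2 -1.22 ± 0.16). Rpn1 (3L, bases 19908156 to 19911265), the scaffold on which shuttle factors dock, had 234 and 166 CPM in the ato IPs, against 242 and 285 CPM in the ato inputs (log2 -0.40 ± 0.18, edgeR adjusted p = 0.122), and 258 and 216 CPM in the WT IPs, against 321 and 348 CPM in the WT inputs (log2 -0.50 ± 0.18). The highest ato IP came close to the lowest ato input, and the ato difference passed with the length offsets alone (-0.44, adjusted p = 0.047). Rpn2 (3R, bases 24979185 to 24982981), the other scaffold, had 273 and 230.4 CPM in the ato IPs, against 195 and 255 CPM in the ato inputs (log2 0.16 ± 0.17, edgeR adjusted p = 0.529, 95% interval -0.21 to 0.53), and 294 and 261 CPM in the WT IPs, against 257 and 273 CPM in the WT inputs (log2 0.07 ± 0.17). IPs and inputs of Rpn2 overlapped in both genotypes. Rpn1 and Rpn2 are the longest members, with 3041 and 3390 bases of exon. Over the 27 subunits the log2 ratio went with log2 exon length at r = 0.44 (rho = 0.14) in ato and r = 0.36 (rho = 0.06) in WT, and without this pair at r = -0.11 and r = -0.20. These correlations are across genes that share the same libraries and are given as a description.

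Among genes under symbols of the rule, the lid had the lowest median ratio of the subcomplexes, a difference that was not tested. That median includes Rpn7, through which the family was selected. It leaves out subunits under other symbols, such as Mov34 (Rpn8) of the lid and CG17331 (Prosbeta4) of the beta ring. All 7 lid genes under symbols of the rule were lower in the ato IP, with a median of -1.34 and a range from -1.74 to -0.51. Their edgeR adjusted p-values lay between 8.14e-06 and 0.031. The WT median was -1.51, with a range from -2.19 to -0.76. Rpn7 (3R, bases 18286380 to 18287772, 1 exon block), a scaffold subunit of the horseshoe, had the lowest ratio of all members. It had 103 and 86.7 CPM in the ato IPs, against 349.8 and 285 CPM in the ato inputs, 3.35-fold lower in the IP (log2 -1.74 ± 0.17, edgeR adjusted p = 8.14e-06). In wild type it had 85.3 and 77.4 CPM in the WT IPs, against 377 and 366 CPM in the WT inputs, a 4.56-fold difference (log2 -2.19 ± 0.18), the value through which the family came to notice. Of its exon bases 6.68% overlap CG34376. Rpn3 (2L, bases 19051830 to 19053681) had 109 and 69.3 CPM in the ato IPs, against 310.4 and 284 CPM in the ato inputs (log2 -1.74 ± 0.20, edgeR adjusted p = 2.37e-05), and 97.4 and 116 CPM in the WT IPs, against 334 and 369 CPM in the WT inputs (log2 -1.72 ± 0.20). Its ato IPs differed from each other more than its WT IPs did, and all 4 stayed far below the inputs. Rpn9 (3R, bases 19557225 to 19559184) had 116 and 99.6 CPM in the ato IPs, against 363 and 285 CPM in the ato inputs (log2 -1.59 ± 0.18, edgeR adjusted p = 1.64e-05), and 103 and 119 CPM in the WT IPs, against 337 and 325 CPM in the WT inputs (log2 -1.58 ± 0.18).

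The catalytic subunit of the lid, the deubiquitinase gene Rpn11, had 121 and 102 CPM in the ato IPs, against 237 and 178 CPM in the ato inputs (log2 -0.90 ± 0.18, edgeR adjusted p = 0.00168), and 92.3 and 109 CPM in the WT IPs, against 241 and 235 CPM in the WT inputs (log2 -1.24 ± 0.18). Rpn12 had 52.8 and 48.6 CPM in the ato IPs, against 156 and 101 CPM in the ato inputs (log2 -1.34 ± 0.21), and 50.1 and 53.1 CPM in the WT IPs, against 149.8 and 143 CPM in the WT inputs (log2 -1.51 ± 0.21). Rpn6, a scaffold subunit that touches the core, had 186 and 161 CPM in the ato IPs, against 352 and 340.1 CPM in the ato inputs (log2 -1.0 ± 0.16), and 187 and 195 CPM in the WT IPs, against 448 and 469 CPM in the WT inputs (log2 -1.26 ± 0.16). In these 3 genes every IP lay below every input. Rpn5 (3R, bases 1615211 to 1617291) had the smallest difference of the lid. It had 167 and 140.3 CPM in the ato IPs, against 208 and 229 CPM in the ato inputs (log2 -0.51 ± 0.17, edgeR adjusted p = 0.031), and 169 and 181 CPM in the WT IPs, against 272 and 322 CPM in the WT inputs (log2 -0.76 ± 0.17). The ato call of Rpn5 was not stable: it was lost with DESeq2's size factors (adjusted p = 0.0816), in DESeq2 (0.0558), in a fit of the ato groups alone (0.0589), when either ato IP, either ato input or either WT input was left out (0.0523 to 0.236), and with either loess offset (0.083 and 0.135).

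Prosalpha1 was at 0 counts in all 8 libraries. Of its exon bases in dm3 98.4% overlap other annotated genes (CG18853, CG30382 and phr), among them CG30382, currently named Prosalpha1R, which was also at 0 throughout. Its level could therefore not be read from these counts. For a gene whose reads can be assigned, a count of 0 allows up to 0.245 to 0.386 CPM, depending on the library's depth. No such bound holds for Prosalpha1. The 11 copies that were not tested reached at most 1.74 CPM in any library (Rpn12R). They summed to 20 and 33 counts in the ato IPs, against 3 and 3 in the ato inputs, and to 33 and 43 counts in the WT IPs, against 0 and 4 in the WT inputs. Each IP sum lay above each input sum. The IP libraries also had counts for more genes over the whole table, 11774 to 12533, than the inputs, 10368 to 10899. Rpt4R gave 7 and 4 counts in the ato IPs and 9 and 9 in the WT IPs, with 0 in all inputs. Rpn12R gave 3 and 14 counts in the ato IPs and 10 and 6 in the WT IPs, against 0 and 2 in the ato inputs and 0 and 2 in the WT inputs. Prosbeta2R1 was counted in the WT IPs alone, with 5 and 8, while Prosbeta5R (Prosbeta5R1) and Pros28.1B (Prosalpha4T2) had no count in any library. Reads shared with a parent gene could be split between the copies, so these counts are uncertain.

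Rpt3R was the only copy with a mean above 10 CPM in any group. It had 8.10 and 9.07 CPM in the ato IPs, against 8.93 and 12 CPM in the ato inputs (log2 -0.29 ± 0.43, edgeR adjusted p = 0.655), and 3.61 and 9.05 CPM in the WT IPs, against 10.1 and 10.4 CPM in the WT inputs (log2 -0.70 ± 0.43). The ato groups overlapped. Rpt6R held between 3 and 21 counts per library, too few for a direction (ato IP over ato input log2 0.28 ± 1.09).

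Per kilobase of exon, core subunits had the highest levels. Prosbeta3 led in every group, with 233 ± 8.31 CPM per kb in the ato IP and 224 ± 39.1 CPM per kb in the WT IP, against 564 ± 87.1 CPM per kb in the ato input and 635 ± 57 CPM per kb in the WT input (SD, n = 2 each). The lowest was Rpn12 in the IPs (48.7 ± 2.85 CPM per kb in the ato IP and 49.6 ± 2.05 CPM per kb in the WT IP) and Rpn2 in the inputs (66.5 ± 12.6 CPM per kb in the ato input and 78.2 ± 3.31 CPM per kb in the WT input). The median level of the beta ring was 158 CPM per kb in the ato IP and 176 in the WT IP, against 353 in the ato input and 387 in the WT input. The alpha ring was close to it, with 164 and 173.5 CPM per kb in the ato and WT IPs, against 338 and 371 in the ato and WT inputs. For the ATPases the medians were 84.3 and 85.3 CPM per kb in the ato and WT IPs, against 224 and 241 in the inputs, and for the lid they were 69.5 and 71.6, against 168 and 196. The quotient of the highest and the lowest subunit was 4.79 in the ato IP and 4.51 in the WT IP, against 8.49 in the ato input and 8.12 in the WT input. This quotient rests on the extreme subunits alone. Over all 27 the SD was 45.9% of the mean in the ato IP and 44.4% in the WT IP. In the ato input it was 45.3% and in the WT input 43.9%, so the spread over subunits was similar in IPs and inputs. The ratios of the 27 subunits in ato and in WT went together at r = 0.93 (rho = 0.87). Without Rpn1 and Rpn2 the values were r = 0.87 (rho = 0.84), against r = 0.74 (rho = 0.81) over all tested genes. The genes share their libraries.

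Other genes around the proteasome were counted from lists. Subunits under other symbols were lower in the ato IP in 4 of 4 tested genes, with a median of -1.16: CG17331 (Prosbeta4, -1.89 ± 0.21), CG13779 (Sem1, -1.20 ± 0.20), Tbp-1 (Rpt5, -1.11 ± 0.20) and Mov34 (Rpn8, -0.78 ± 0.17). Of 9 assembly factors, regulators and shuttles, 6 were lower and 0 higher, with a median of -0.55. The lowest were Pomp, which helps the core to mature (-1.89 ± 0.18, edgeR adjusted p = 8.14e-06), the shuttle factor Rad23 (-0.98 ± 0.17) and CG5384 (Usp14), a deubiquitinase of the base (-0.74 ± 0.17). Pomp had 92.9 and 97.7 CPM in the ato IPs, against 404 and 302 CPM in the ato inputs, and 88.2 and 108 CPM in the WT IPs, against 361 and 350.0 CPM in the WT inputs. REG, an alternative cap of the core, was among those that did not pass. It had 417 and 520.1 CPM in the ato IPs, against 413 and 386 CPM in the ato inputs, and 347 and 371 CPM in the WT IPs, against 368 and 333 CPM in the WT inputs (ato ratio 0.23 ± 0.16, edgeR adjusted p = 0.313).

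The cnc branch, which can drive proteasome genes in flies, did not move one way. cnc itself was higher in the ato IP (1.03 ± 0.19, edgeR adjusted p = 0.000858), with 175 and 144 CPM in the ato IPs, against 69.7 and 86.2 CPM in the ato inputs, and 178 and 171 CPM in the WT IPs, against 75.7 and 56.4 CPM in the WT inputs. Its partner maf-S was lower (-1.21 ± 0.22), as was GstD1, a glutathione transferase gene known as a target (-1.47 ± 0.18), while Keap1, Gclc and Gclm did not pass. Of 39 tested ubiquitin and conjugation genes 13 were lower and 1 was higher, with a median of -0.21. The lowest were the RING gene Roc2 (-1.45 ± 0.20), the conjugating enzyme gene UbcD10 (-1.18 ± 0.18) and skpA (-1.14 ± 0.17), and the higher one was the ligase gene hyd (0.81 ± 0.20).

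The COP9 signalosome, which removes Nedd8 from cullins and is built like the proteasome lid, gave values in the range of the subunit genes: 7 of its 8 tested genes were lower in the ato IP and 0 higher, with a median of -1.05. Its lowest were CSN6 (-1.73 ± 0.17), alien (CSN2, -1.40 ± 0.18) and CSN8 (-1.33 ± 0.23). Of 8 CCT chaperonin genes 1 was lower, CG5525 (CCT4, -0.56 ± 0.15), with a median of -0.30. In wild type 6 of these 8 were lower in the IP, and all 8 lay below 0 in both genotypes. For 0 of the 8 did the ratio of IP to input differ between the genotypes (edgeR, adjusted p below 0.05). Among ribosomal protein genes, 55 of 71 tested mitochondrial ones were lower and 0 higher (median -0.95), and 5 of 84 tested cytosolic ones were lower and 6 higher (median 0.10). The lowest mitochondrial ones were mRpL41 (-2.15 ± 0.33), mRpL34 (-2.11 ± 0.31) and mRpS18C (-1.91 ± 0.30). The corresponding WT medians were -0.99 for subunits under other symbols, -0.72 for regulators, -0.28 for ubiquitin genes, -1.21 for COP9, -0.61 for CCT, -0.97 for the mitochondrial and 0.37 for the cytosolic ribosomal proteins. The COP9 and mitochondrial lists had medians close to that of the proteasome subunits, and no difference between lists was tested.

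**Figure D4:**
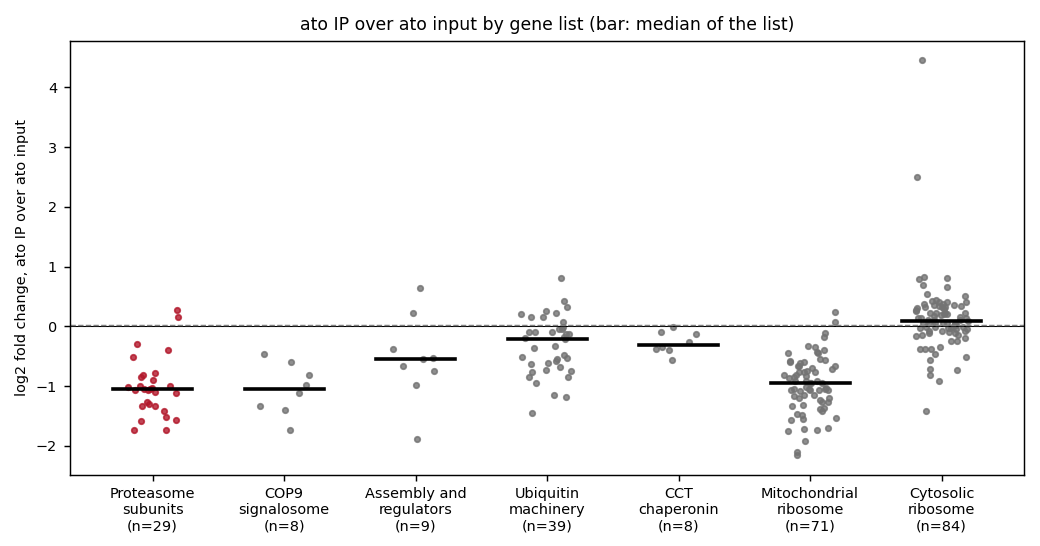
Log2 fold change of ato IP over ato input (vertical axis) of each tested gene in 7 lists, with a bar at the median of the list and a dashed line at 0.02, the median of all tested genes. The proteasome subunits (median -1.04), the COP9 genes (-1.05) and the mitochondrial ribosomal protein genes (-0.95) lie mostly below 0, and the cytosolic ribosomal protein genes (0.10) around it.

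Loss of ato was compared in the IPs and in the inputs. In the IPs 0 of the 29 members passed in either direction, with 1 at an unadjusted p below 0.05 in edgeR and 0 calls in DESeq2. Over all genes 1.88% were lower and 2.82% higher in the ato IP. The members' median log2 fold change was -0.11, with -0.03 over all tested genes. Both ato IPs lay below both WT IPs for 7 of the 29, a pattern that 23.8% of all tested genes showed, and above them for 3, against 21.7% of all tested genes. Pros54 was lowest, with 144 and 141 CPM in the ato IPs, against 171 and 195 CPM in the WT IPs (log2 -0.36 ± 0.16, edgeR adjusted p = 0.251). Pros26.4 came next, with 93 and 83.8 CPM in the ato IPs, against 106 and 118 CPM in the WT IPs (log2 -0.34 ± 0.17, adjusted p = 0.31), and then Pros45, with 127 and 132 CPM in the ato IPs, against 146 and 175 CPM in the WT IPs (log2 -0.31 ± 0.16, adjusted p = 0.35). Pros28.1 stood highest, with 289 and 232 CPM in the ato IPs, against 173 and 229 CPM in the WT IPs (log2 0.38 ± 0.18, adjusted p = 0.292). Rpn7 had 103 and 86.7 CPM in the ato IPs, against 85.3 and 77.4 CPM in the WT IPs (log2 0.22 ± 0.17), and Pros35 had 124 and 121 CPM in the ato IPs, against 100.1 and 119 CPM in the WT IPs (log2 0.17 ± 0.18). In each of these 6 genes the ato and WT IPs did not overlap. The 95% intervals of the 27 subunits reached from -0.70 in Pros26.4 to 0.76 in Pros28.1, so changes up to these bounds are not excluded. These intervals rest on 1 fit that pools the spread over the 4 groups and borrows from other genes.

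In the inputs 0 of the 29 members passed, with 2 at an unadjusted p below 0.05 in edgeR and 0 calls in DESeq2. Over all genes 2.34% were lower and 4.64% higher in the ato input. The members' median was -0.17, with 0.01 over all tested genes and -0.11 over genes in the members' range of input level. The spread of the members' median between replicates, combined over both groups for a difference of single libraries, was an SD of 0.21. The value of -0.17 compares groups of 2 libraries, so it cannot be set directly against that SD, and it was not tested. Below 0 lay 25 of the 29 values, against 4945 of all 10224 tested genes and 738 of 1173 in that range. The members share their libraries, so these values are not independent. Both ato inputs lay below both WT inputs for 12 of the 29, against 26.4% of all tested genes, and above them for 0, against 27.6%. Rpn5 was lowest, with 208 and 229 CPM in the ato inputs, against 272 and 322 CPM in the WT inputs (log2 -0.44 ± 0.17, edgeR adjusted p = 0.13). Rpn6 had 352 and 340.1 CPM in the ato inputs, against 448 and 469 CPM in the WT inputs (log2 -0.41 ± 0.15, adjusted p = 0.139), and Pros26.4 had 189 and 171 CPM in the ato inputs, against 244 and 213 CPM in the WT inputs (log2 -0.35 ± 0.17, adjusted p = 0.238). The groups did not overlap in these 3 genes. Prosbeta2 stood highest, with 293 and 191 CPM in the ato inputs, against 213 and 198 CPM in the WT inputs (log2 0.23 ± 0.21, adjusted p = 0.566), and its groups overlapped. With the length offsets 4 members passed as lower, Rpn6, Pros29, Rpn5 and Prosbeta3, with 3.3% of all tested genes lower under the same offsets. The intervals of the 27 subunits reached from -0.79 in Rpn5 to 0.68 in Prosbeta2. Marker levels of other cells differed between the same inputs, with muscle sums of 152 and 93.3 CPM in the ato inputs and 56.3 and 68.8 CPM in the WT inputs; their part in these values was not tested.

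**Figure D5:**
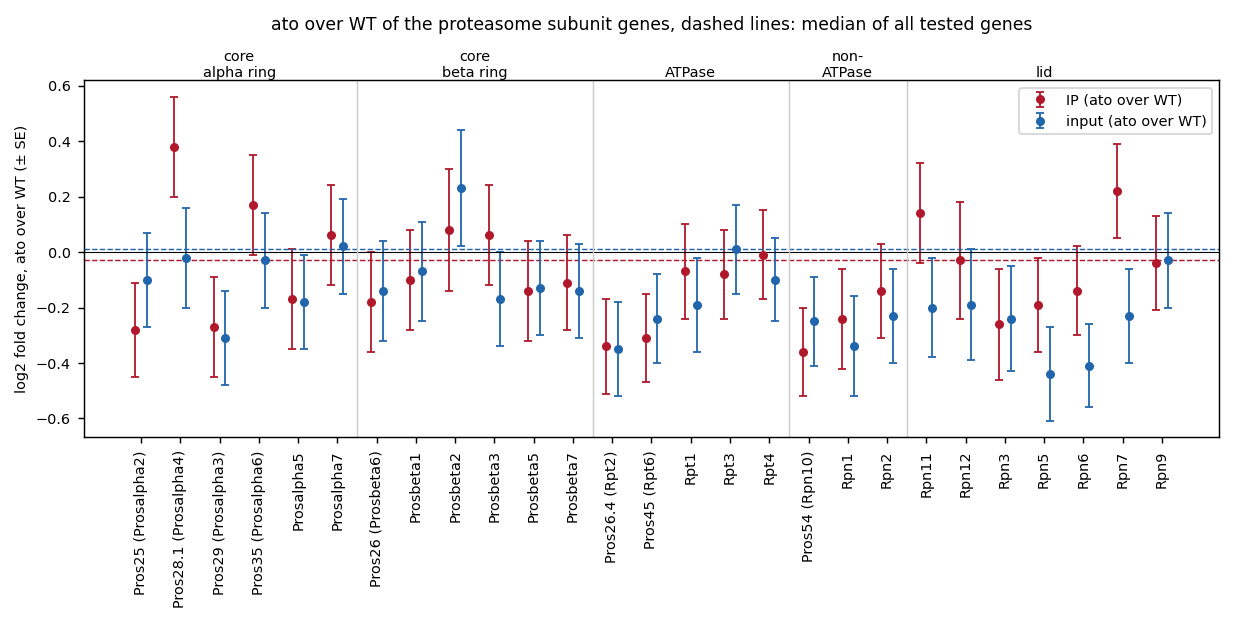
Log2 fold change of ato over WT (vertical axis, ± SE, 2 libraries per group) of the 27 subunit genes in the IPs and in the inputs, by subcomplex, with dashed lines at the median of all tested genes (-0.03 in the IPs and 0.01 in the inputs). Values run from -0.36 in Pros54 to 0.38 in Pros28.1 in the IPs and from -0.44 in Rpn5 to 0.23 in Prosbeta2 in the inputs.

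Whether the ratio of IP to input differed between ato and WT was tested as an interaction, in which 0 of the 29 members passed, as did 0.0% of all genes in the higher and 0.0% in the lower direction (edgeR; 0 members at an unadjusted p below 0.05, 0 calls among members in DESeq2). The members' median difference was 0.04. Rpn7 had the highest value among body-wide subunits, log2 0.44 ± 0.24; the WT ratio that drew attention to the family enters this difference, so it is given with no test. Pros28.1 followed (log2 0.40 ± 0.25, 95% interval -0.13 to 0.94), and Pros25 was lowest (log2 -0.19 ± 0.24, 95% interval -0.70 to 0.33). Differences up to these bounds are not excluded by the fit, which pools the spread over the 4 groups. Among the lists of regulators, cnc branch, ubiquitin, COP9 and CCT genes, 1 gene passed between the genotypes in the IPs and 0 in the inputs. Over all tested genes 1.88% were lower and 2.82% higher in the ato IP, and 2.34% and 4.64% in the ato input. The gene that passed was ago, the F-box gene of a cullin ligase. It had 88.3 and 60.1 CPM in the ato IPs, against 122 and 120.4 CPM in the WT IPs (-0.70 ± 0.19, edgeR adjusted p = 0.0474). The inputs differed the same way, with 114 and 136 CPM in ato, against 178 and 193 CPM in WT (-0.57 ± 0.19, edgeR adjusted p = 0.0891). The interaction value of ago was -0.14 ± 0.27. The genotypes did not overlap in its IPs or in its inputs, and the call was not recomputed under other settings.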

How the data were processed

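RNA was measured by sequencing in 32 runs: 4 groups, 2 replicates per group and 4 runs per replicate. The authors deposited raw counts per gene and run, made with TopHat2 2.0.12 and featureCounts 1.4.4, per the submitters' processing notes. Counting used exons of dm3 and a mapping quality of 5 or more, per the file headers, which name no setting for strand, pairs, multimapping reads or overlaps, so reads of overlapping genes cannot be told apart; exons of 12 of the 41 members overlap another gene. The table had 0 columns of other samples.

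Runs were summed to 8 libraries, since they differed far less (chi-square per degree of freedom 1.78 to 1.92) than replicates did (9.48 to 31.3). CPM, counts scaled to a common library size, were scaled by TMM factors. Differences were tested with edgeR 4.0.16 in R 4.3.3 (filterByExpr, quasi-likelihood F tests, 1 model over the 4 groups, which share 1 estimate of the spread), with Benjamini-Hochberg adjustment over 10224 genes and a threshold of 0.05. DESeq2 1.42.0 and limma 3.58.1 (loess offsets) served for alternatives. Intervals (95%) use the t quantile at 16.7 degrees of freedom, part of which edgeR borrows from other genes. The SE of a log2 fold change is its absolute value divided by the square root of F. Exact permutation of 2 against 2 libraries cannot reach 0.05 and was not used.

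The members, gene lists and tests were chosen with earlier results of these data known. Values in every library are given for the 3 members with the lowest and the 3 with the highest log2 fold change in each comparison if the group with more RNA averaged 10 CPM or more; further members were named for their role. Up to 3 called genes per direction are named from each list. Of the symbols, 30 were current and 11 matched as synonyms in RefSeq (Release 6 plus ISO1 MT). Coordinates come from the deposited table (dm3, counted from 1). Promoter motifs and sequences were not analysed here.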

Additional observations from a re-analysis of the deposited data

Results flagged for a closer look

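Rpn7 was singled out because its libraries moved in opposite directions in the IPs and in the inputs. Both ato IPs lay above both WT IPs (102.8 and 86.7 CPM in the ato IPs, against 85.3 and 77.4 CPM in the WT IPs, log2 0.22 ± 0.17), and both ato inputs lay below both WT inputs (349.8 and 285 CPM in the ato inputs, against 377 and 366 CPM in the WT inputs, log2 -0.23 ± 0.17). Rpn7 was known for a low WT IP relative to its WT input, a choice that favours both of these directions, so the values are given as a description, with no test.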

How the results depend on the processing

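The direction and the counts of members called were recomputed under other size factors, no low-count filter, DESeq2, only the compared groups, leave-outs of each library, a replicate block, and offsets for abundance or exon length. No named member that was called in the main fit or in an alternative changed sign between them. Changes of sign in members called in neither fit were not counted. Members called lower in the ato IP against the ato input numbered 24 or 25 under every alternative, and 0 were higher. Exon-length offsets moved the members' median to -0.65 in the ato IP over ato input and to -0.81 in the WT IP over WT input, and called 4 members lower in the ato input against the WT input. Among the 29 tested members, leaving aside the comparison of WT IP with WT input, Rpn5 no longer passed between ato IP and ato input under 11 alternatives and Prosalpha7 under 1, the length offsets. Those offsets also brought Rpn1 past the threshold between ato IP and ato input (-0.44) and Rpn6, Pros29, Rpn5 and Prosbeta3 between ato input and WT input (-0.50 to -0.41). No other call of a member changed in these comparisons. The cause was not tested.

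The replicate numbers were not shown to pair the preparations: deviations of same-numbered libraries correlated at r = 0.20 between ato IP and ato input and at 0.07 between WT IP and WT input, and between -0.11 and 0.10 across genotypes. With the replicate block by number, 25 members were called lower in the ato IP against the ato input, as without it, and 0 between the genotypes in the IPs, in the inputs or in the interaction. A block by preparation, which could be fitted only for IP against input and the interaction, gave 25 and 0. Each of the 27 body-wide subunits had at least 391 counts in every library, while Rpt6R had 3 to 21; whether more depth or more libraries would add calls was not tested.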
